A study of Mus musculus with 15 samples.

Results

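Antisense RNAs are long transcripts read from the strand opposite to a gene, and the annotated ones described here carry the gene type "antisense" in the deposited table of known long noncoding RNAs. A transcript was kept when it reached at least 0.5 FPKM in 2 or more of the 10 liver libraries, FPKM being the number of sequenced fragments divided by transcript length and by library size. Of 417 transcripts (344 genes) listed as antisense, 306 transcripts of 257 genes met this level, out of 1254 annotated long noncoding transcripts of all types. The transcripts were thus chosen by their measured level, and their being detected is not a result. Just inside the level were 1700112D23Rik, Gm7097 and 6330418K02Rik, whose 2nd highest library held 0.501, 0.501 and 0.503 FPKM, and just outside were Gm7628, Gm43714 and 4833422C13Rik with 0.495, 0.499 and 0.499 FPKM. Of the 306 transcripts, 189 reached 0.5 FPKM in at least 1 library of each of the 5 groups, and 4 did so in the libraries of 1 group alone, namely 2 in Nor, 1 in H1D and 1 in H2D.

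An antisense RNA can start close to the start of its partner and run away from it, start within the partner, or overlap its end. Some act on the partner in cis. Airn, which is transcribed across Igf2r, and Kcnq1ot1, which lies within Kcnq1, are the textbook cases in which antisense transcription from the paternal chromosome silences neighbouring genes there. Others are known only as a transcript model, and for most of the RNAs described here no function is established.

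The livers came from wild-type male C57BL/6 mice killed at 40 weeks of age, and the study asked how a high-fat diet over several generations of mothers bears on liver cancer in the sons. H1D, H2D and H3D mice were injected with diethylnitrosamine (DEN, a liver carcinogen) at 2 weeks of age and then ate high-fat chow (60% of calories as fat). Their mothers were of the F0, F1 and F2 generation, females that had been given the same diet between months 1 and 3 of life. NCD mice received DEN at the same age and ate normal chow, and Nor mice received PBS and ate chow. Each group is represented by 2 pools made from the RNA of 4 to 8 animals, so variation among animals was not measured. Own diet and maternal diet both separate H1D, H2D and H3D from NCD, and their effects cannot be told apart.

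The number of reads per library was not given in the sources used here, so the depth behind each FPKM is unknown. The sum of mRNA FPKM was 568823 to 628484 in the H1D, H2D and H3D pools, 660821 and 676268 in the NCD pools and 772100 and 784456 in the Nor pools. All 6 hepatocyte markers were detected, with a summed level of 48626 to 88442 FPKM per library. Several of the other marker lists moved with the groups. The summed level of 7 macrophage markers was 295 to 426 FPKM in the high-fat pools, 195 and 247 in NCD and 128 and 167 in Nor. The 6 neutrophil markers summed to 18.6 to 886 FPKM in the high-fat pools, 10.3 and 28.6 in NCD and 3.57 and 12.2 in Nor, and the 6 erythroid markers to 577 to 3977, 633 and 758, and 510 and 550 FPKM in the same order of groups. Among the high-fat pools those of H1D were lowest in both, with 18.6 and 104 FPKM for neutrophil and 577 and 1106 FPKM for erythroid markers. The 5 cell division markers summed to 12.7 to 33.1 FPKM in the high-fat pools, 11.3 and 11.8 in NCD and 1.62 and 1.93 in Nor, and the 5 cholangiocyte markers to 101 to 457, 211 and 262, and 14.0 and 20.7 FPKM. In the same order, 7 stellate and fibroblast markers summed to 78.8 to 157, 107 and 113, and 92.7 and 118 FPKM. For 6 endothelial markers the sums were 96.4 to 124, 101 and 109, and 79.7 and 97.5 FPKM. For 7 T and B lymphocyte markers they were 2.51 to 4.97, 5.45 and 6.84, and 1.44 and 2.93 FPKM. In bulk liver, fewer cells of a type and less RNA per cell cannot be told apart. The part of these shifts in the results that follow was not tested.

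A sense gene was assigned to 93 of the 257 antisense genes. For 66 of them the RefSeq gene models of GRCm38.p6 overlap on opposite strands, and for 27 the gene symbol names the partner. Of the 66, 29 start inside the sense gene and end outside it, 21 end inside it and start outside, 14 lie within it and 2 span it. RefSeq holds 128 of the 257 genes, 123 of them as lncRNA, 4 as protein-coding and 1 as a transcribed pseudogene. Toporsos, now named Smim27, is one of the 4, so the antisense label of the deposited table does not exclude a coding transcript. Gm10680 and Gm15622 have no entry there and are described by level alone. The strandedness of the libraries is not given in the sources used here. Without strand, reads over an overlap cannot be assigned to one partner, so the levels of an antisense RNA and its sense gene may share reads.

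The closest head-to-head arrangements are shown because they carry results given further on. They are RefSeq promoter windows of GRCm38.p6 on the plus strand, given 5′ to 3′ in the direction of the sense gene. Elovl6, which elongates long-chain fatty acids, starts at position 129532386 of chromosome 3, and Gm35986 starts 2 bases away on the minus strand. Cyp2a4, a steroid-hydroxylating cytochrome P450 of mouse liver, starts at position 26307192 of chromosome 7, and RP23-267I20.3 starts 20 bases away on the minus strand. Capitals mark the bases that the sense and antisense models share (3 in the Elovl6 window and 21 in the Cyp2a4 window) and the motif TATAAA.

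Elovl6 and Gm35986, chr3:129532136-129532435: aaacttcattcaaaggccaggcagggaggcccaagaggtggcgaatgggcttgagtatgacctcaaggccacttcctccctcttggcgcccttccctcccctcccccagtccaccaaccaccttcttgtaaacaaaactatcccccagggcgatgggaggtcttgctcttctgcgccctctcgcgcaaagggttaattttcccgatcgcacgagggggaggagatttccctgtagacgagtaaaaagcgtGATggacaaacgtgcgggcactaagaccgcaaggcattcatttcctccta
Cyp2a4 and RP23-267I20.3, chr7:26306942-26307241: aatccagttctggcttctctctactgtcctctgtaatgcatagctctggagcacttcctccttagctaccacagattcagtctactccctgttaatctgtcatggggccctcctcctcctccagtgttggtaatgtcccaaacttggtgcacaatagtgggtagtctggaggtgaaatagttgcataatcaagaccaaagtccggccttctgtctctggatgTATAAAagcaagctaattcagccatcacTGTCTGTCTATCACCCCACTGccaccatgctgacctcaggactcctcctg

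The Elovl6 window holds 14 CG dinucleotides and no TATAAA on either strand. The Cyp2a4 window holds 1 CG and a TATAAA that begins 28 bases before the Cyp2a4 start. Over all 32851 windows of the table the median was 7 CG, and 13.6% of windows held TATAAA on either strand. The 134 windows of antisense genes described here had a median of 8 CG, and 11.2% held TATAAA. The letters TATAAA and CG do not overlap, and a match is a description of the sequence, not a site.

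Most of the antisense RNAs were scarce. The median over the 306 transcripts of the mean level was 0.994 FPKM, 153 averaged under 1 FPKM and 17 averaged over 10 FPKM. At least 0.5 FPKM was reached in all 10 libraries by 137 transcripts and in 2 or 3 libraries by 63. Between 213 and 241 of the 306 reached it in a given library. The pools of a group differed by a median of 0.30 on the log2(FPKM + 0.5) scale, which was 0.14 for transcripts over 10 FPKM and 0.36 for those under 1 FPKM. This spread bounds what 2 pools can resolve among the scarce transcripts.

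**Figure D1:**
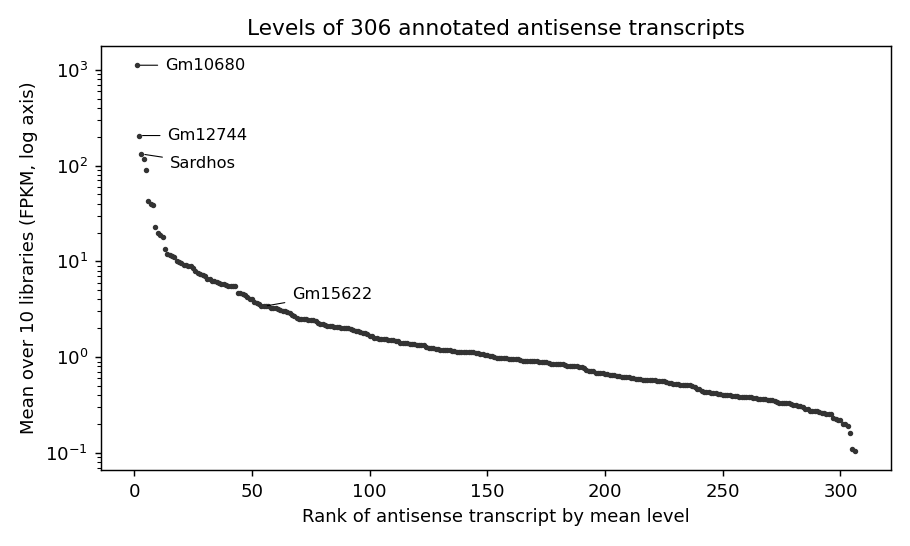
Mean level over the 10 libraries (FPKM, log axis) of each of the 306 antisense transcripts, ordered from the most to the least abundant. Each point is 1 transcript, and Gm10680, at 1118 FPKM, stands well above Gm12744, the next transcript, at 206 FPKM.

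Gm10680 was the most abundant antisense RNA and the one whose level differed most between groups. Its level was 1589 and 1314 FPKM in H1D, 1159 and 1255 in H2D, 1554 and 2333 in H3D, 1047 and 839 in NCD, and 49.7 and 42.7 in Nor. Every pool of the DEN-treated groups lay above both Nor pools, and every high-fat pool lay above both NCD pools. The means were 943 ± 147 FPKM in NCD and 46.2 ± 4.95 FPKM in Nor (SD, n = 2 pools each), a log2 change of 4.33 ± 0.23 (SE). Gm10680 alone made up 47.8% to 68.1% of the summed level of the antisense RNAs in the high-fat pools, 44.4% and 38.8% in NCD and 3.08% and 2.66% in Nor. Without it the 306 transcripts summed to 1223 and 1281 FPKM in H1D, 1264 and 1244 in H2D, 1159 and 1092 in H3D, 1314 and 1324 in NCD, and 1567 and 1565 in Nor. The remaining transcripts thus summed highest in Nor and lowest in H3D, the same order as the mRNA sums given above.

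Gm15622 had the opposite order between NCD and Nor. Its level was 1.72 and 2.02 FPKM in H1D, 3.68 and 1.55 in H2D, 1.39 and 3.45 in H3D, 1.48 and 1.13 in NCD, and 7.83 and 9.69 in Nor. Both Nor pools lay above all 8 DEN pools, and the pools of H2D and of H3D each spanned most of the range of the DEN groups. The log2 change of NCD against Nor was -2.36 ± 0.41 (SE). Gm10680 and Gm15622 were singled out for these levels, so their changes are given as a description with no p-value.

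The comparison of NCD with Nor asks what DEN does under chow. With limma, 6 of the 306 antisense transcripts passed an adjusted p of 0.05 (1.96%), against 26 of all 1493 noncoding transcripts tested (1.74%). Of the 6, 4 rose (1.41% of all noncoding transcripts) and 2 fell (0.335%). The split was 4 and 1 with libraries scaled to equal mRNA sums, and 4 and 0 with quantile scaling. The median log2 change was -0.15 over the antisense transcripts and -0.08 over all noncoding transcripts. The count depended on single libraries: leaving out NCD replicate 1 gave 1 call, and leaving out NCD replicate 2 or Nor replicate 1 gave 3. The share among antisense RNAs was close to the background, so it is no result about them as a class.

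Besides Gm10680, the transcripts that rose were Gm17690, Gm15512 and Gm11963, of which no function is established. The transcript ENSMUST00000199721 of Gm17690 had 3.72 and 2.24 FPKM in NCD, against 3.1e-06 and 0.431 FPKM in Nor, and ranged from 2.24 to 5.03 FPKM over the 6 high-fat pools. Its log2 change in NCD against Nor was 2.32 ± 0.34 (limma adjusted p = 0.0157). Every DEN pool lay above both Nor pools. The other Gm17690 transcript, ENSMUST00000180958, had 1.25 and 1.32 FPKM in NCD, against 0.414 and 0.628 FPKM in Nor, and did not pass (limma adjusted p = 0.127). Gm15512 had 1.47 and 1.48 FPKM in NCD, against 0 and 0.0731 FPKM in Nor, a log2 change of 1.88 ± 0.28 (limma adjusted p = 0.0157). Its level was 3.94 and 2.58 FPKM in H1D, 1.61 and 1.56 in H2D, and H3D had 3.79 and 2.09, so the high-fat pools ran from near NCD upward. Gm15512 and ENSMUST00000199721 reached 0.5 FPKM in DEN pools alone, so their difference from Nor follows in part from how they were chosen.

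Gm11963 had 3.05 and 2.07 FPKM in NCD, against 0.597 and 0.289 FPKM in Nor, a log2 change of 1.70 ± 0.27 (limma adjusted p = 0.0197). The high-fat pools, with 1.55 to 2.67 FPKM, overlapped those of NCD. By its RefSeq model at chr11:5485880-5506249 Gm11963 lies 14392 bases from Xbp1, a transcription factor of the unfolded protein response. Gm14302, named after its values were seen, fell. It was listed at 0 in both NCD pools, against 0.873 and 0.808 FPKM in Nor, and it was 1 of the 2 transcripts that met the level through Nor alone, so its difference follows from how it was chosen. Its limma adjusted p was 0.0451. Leaving out a library ended some of these calls. Gm14302 was called only without an H1D replicate, with an adjusted p up to 0.205 otherwise. Gm17690 was not called without NCD replicate 1 or Nor replicate 1, and Gm15512 not without either NCD replicate or Nor replicate 1. Gm11963 was not called without either NCD replicate or Nor replicate 2, and its limma adjusted p reached 0.161, against 0.135 for Gm17690 and Gm15512. The other 2 of the 6 calls were Gm10680 and Gm15622, which were singled out for their levels. They enter the counts of calls, and nothing else is rested on their calls.

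**Figure D2:**
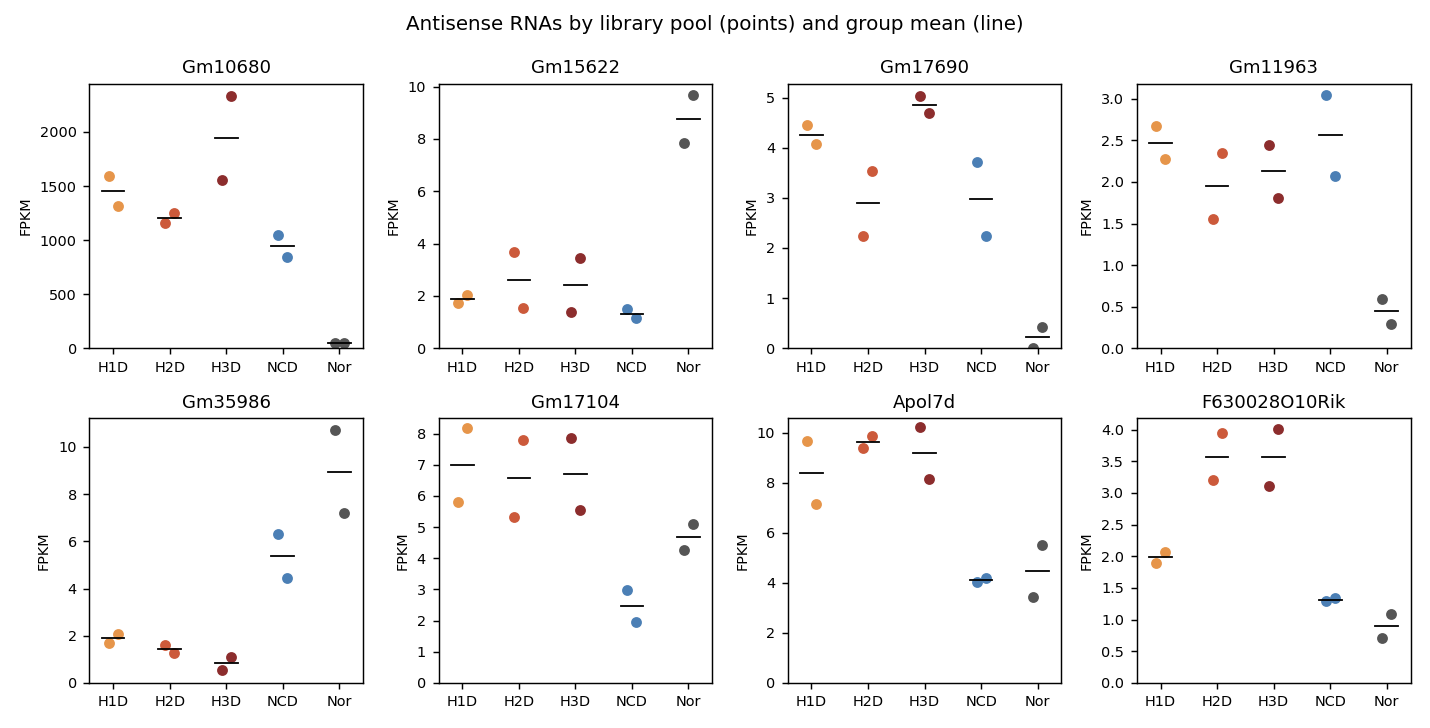
Level (FPKM, y axis, starting at 0) of 8 antisense transcripts in each pool (points) of H1D, H2D, H3D, NCD and Nor (x axis), with the mean of the 2 pools as a line. F630028O10Rik is ENSMUST00000147681. The upper row shows transcripts that differed between NCD and Nor, of which Gm10680 and Gm15622 were singled out for their levels. In the lower row the high-fat pools lie below both NCD pools for Gm35986 and above them for Gm17104, Apol7d and F630028O10Rik.

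The high-fat groups were set against NCD to ask what their diet and ancestry add to DEN. With limma, 0 of the 306 transcripts passed in H1D and 0 in H2D, against 1 of 1493 noncoding transcripts in each (0.067%). An unadjusted p under 0.05 was reached by 32 antisense transcripts in each, against 11.5% of all noncoding transcripts in H1D and 13.1% in H2D. In H3D, 20 passed (6.54%), against 93 of 1493 (6.23%), 6 of them higher (1.34% of all) and 14 lower (4.89% of all) in H3D. The split was 7 and 10 with equal mRNA sums and 7 and 9 with quantile scaling. The median log2 change in H3D was -0.09 over the antisense transcripts and -0.04 over all noncoding transcripts. This count rested on each of the 4 pools compared, since it was 1 without H3D replicate 1, 3 without H3D replicate 2, 1 without NCD replicate 1 and 2 without NCD replicate 2. It was 13 without any one of the H1D or H2D libraries.

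For the mean of the 3 high-fat groups against NCD, 7 of the 306 passed in limma (2.29%), against 32 of 1493 (2.14%). Of the 7, 3 were higher (0.402% of all) and 4 lower (1.74% of all) in the high-fat groups. The split was 3 and 2 with equal mRNA sums and 4 and 4 with quantile scaling. The count was 0 without either NCD replicate, 1 without H1D replicate 1 or H2D replicate 2, and 2 without H2D replicate 1 or either H3D replicate. As in the other comparisons the share was near the background. The test of a difference between the high-fat groups found 0 of 306 transcripts in limma for H2D against H1D, H3D against H2D and H3D against H1D, with 20, 37 and 28 at an unadjusted p under 0.05 (8.57%, 10.4% and 9.85% of all noncoding transcripts). All noncoding transcripts gave 0, 0 and 1 calls (0%, 0% and 0.067%). A count of 20 in H3D and of 0 in H1D and H2D is therefore not shown to be a difference between generations.

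Hnf4aos was lower in the high-fat groups than in NCD without passing. Hnf4a is a transcription factor that defines hepatocytes, and Hnf4aos at chr2:163493804-163541721 starts inside it and overlaps it by 34911 bases on the other strand. Hnf4aos had 0.276 and 1.59 FPKM in H1D, 1.96 and 1.11 in H2D, 0.214 and 1.10 in H3D, 3.31 and 2.38 in NCD, and 5.22 and 3.49 in Nor. The groups did not overlap between high-fat and NCD, but the pools of H1D and H3D were several-fold apart, and the log2 change was -1.25 ± 0.44 (limma adjusted p = 0.17). Hnf4a had 126 to 157 FPKM in the high-fat pools, against 139 and 152 FPKM in NCD, with overlapping groups and a log2 change of 0.01 ± 0.09.

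**Figure D3:**
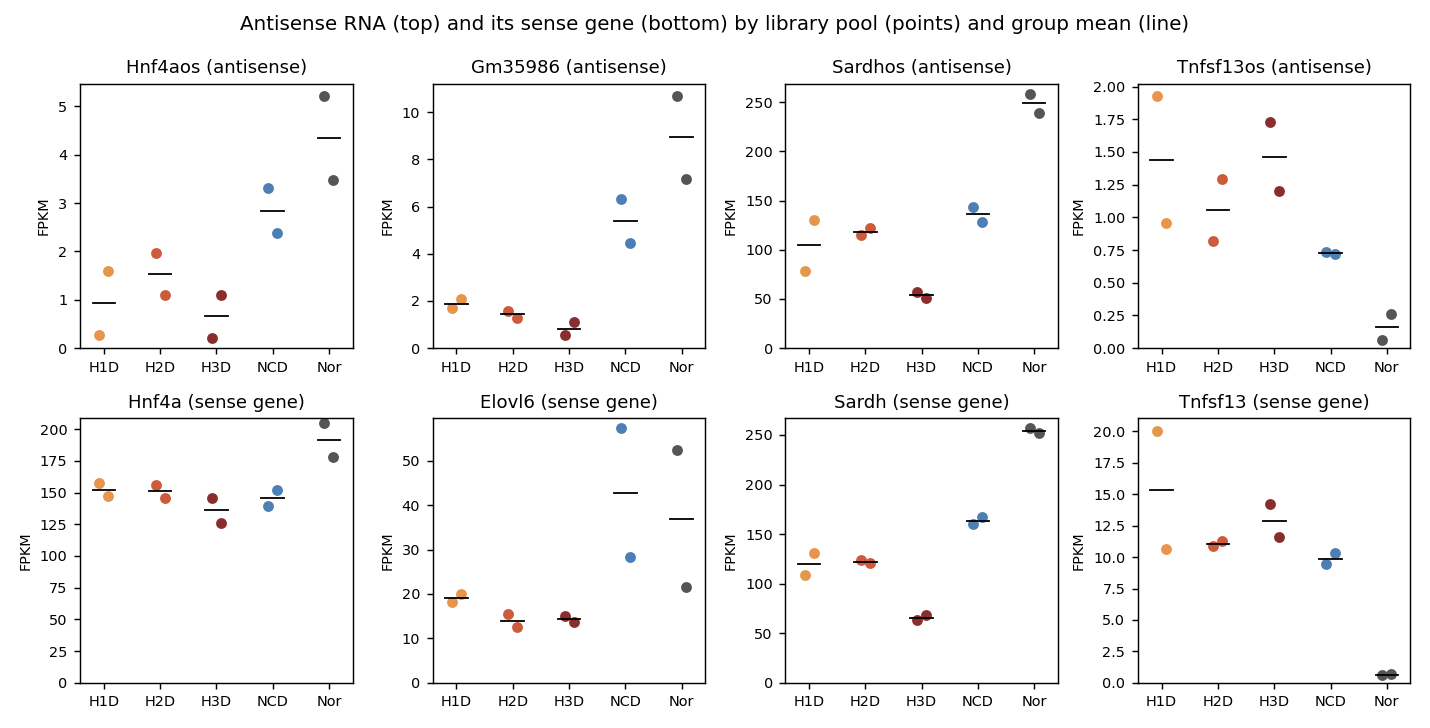
Level (FPKM, y axis, starting at 0) of 4 antisense RNAs (top) and their sense genes (bottom) in each pool (points) of H1D, H2D, H3D, NCD and Nor, with the mean of the 2 pools as a line. Hnf4aos lies lower in the high-fat pools than in NCD while Hnf4a overlaps with NCD; Gm35986 and Elovl6 both lie lower in the high-fat pools than in NCD, Sardhos and Sardh are both lowest in H3D and highest in Nor, and Tnfsf13os and Tnfsf13 are lowest in Nor.

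Gm35986, the head-to-head neighbour of Elovl6 whose shared start is printed above, was the antisense RNA with the largest called fall in the high-fat groups. It had 1.70 and 2.08 FPKM in H1D, 1.58 and 1.29 in H2D, 0.548 and 1.10 in H3D, 6.30 and 4.46 in NCD, and 10.7 and 7.19 in Nor. All high-fat pools lay below both NCD pools. The log2 change was -1.68 ± 0.24 for the mean of the high-fat groups (limma adjusted p = 0.0203) and -2.16 ± 0.29 in H3D (limma adjusted p = 0.0103). The call for the mean was lost without H1D replicate 1, H2D replicate 2 or either NCD replicate (adjusted p up to 0.138). That in H3D was lost without H3D replicate 1 or NCD replicate 1, with an adjusted p up to 0.0676 in limma.

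Elovl6 had 18.2 and 20.1 FPKM in H1D, 15.4 and 12.6 in H2D, 15.0 and 13.7 in H3D, 57.3 and 28.3 in NCD, and 52.3 and 21.6 in Nor. It fell in the high-fat groups by 1.34 ± 0.34 on the log2 scale (limma adjusted p = 0.041 over 11557 mRNA genes). That call was kept only without a Nor replicate, with an adjusted p up to 0.307 in limma without any one of the other 8 libraries. The NCD and Nor pools were far apart for Elovl6, and those of Gm35986 less so. The change of the ratio of antisense to sense was tested in one fit over 189 pairs of noncoding transcript and sense gene, of which 105 hold an antisense transcript described here. The ratio of Gm35986 to Elovl6 changed by -0.34 ± 0.28 and did not pass (limma adjusted p = 0.61).

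Gm16573 lies within Parp4, a poly(ADP-ribose) polymerase of vault particles, on the other strand at chr14:56607261-56620513. Its transcript ENSMUST00000161382 had 5.46 and 8.36 FPKM in H1D, 10.7 and 10.8 in H2D, 2.57 and 6.30 in H3D, 15.9 and 11.8 in NCD, and 20.7 and 21.5 in Nor. The H3D pools lay below both NCD pools, and the log2 change in H3D was -1.63 ± 0.37 (limma adjusted p = 0.0405). This call was kept in 1 of the 10 fits that left out a library, the one without H3D replicate 2, with an adjusted p up to 0.176 in the others, and it was lost with equal mRNA sums and with quantile scaling. Parp4 had 4.48 to 6.03 FPKM in the high-fat pools, against 4.93 and 4.02 FPKM in NCD. ENSMUST00000161382 was above Parp4 in mean level, 11.4 against 4.55 FPKM over the 10 libraries, while the other 2 Gm16573 transcripts, at 4.42 and 1.28 FPKM, were below it. ENSMUST00000162231 had 3.36 and 3.52 FPKM in H3D, against 1.84 and 4.73 FPKM in NCD, and ENSMUST00000160334 had 1.06 and 1.06 FPKM in H3D, against 0.927 and 1.05 FPKM in NCD. Neither passed, and the log2 changes in H3D were 0.17 ± 0.36 and 0.07 ± 0.20.

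The transcripts that rose in the mean of the high-fat groups were Gm17104, Apol7d and F630028O10Rik. Apol7d is one of the apolipoprotein L genes by name, and its transcript ENSMUST00000127218 had 9.66 and 7.14 FPKM in H1D, 9.39 and 9.89 in H2D, 10.2 and 8.17 in H3D, 4.05 and 4.19 in NCD, and 3.44 and 5.51 in Nor. All high-fat pools lay above all chow pools, and NCD overlapped Nor. The log2 change was 1.04 ± 0.20 for the mean (limma adjusted p = 0.0419) and 1.06 ± 0.25 in H3D (limma adjusted p = 0.0455). Its RefSeq model at chr1:71653335-71662843 lies 55 bases from Fn1, the gene of fibronectin. Leaving out a library kept the call for the mean only without H1D replicate 2 or either Nor replicate, and the call in H3D only without either Nor replicate. The limma adjusted p reached 0.252 and 0.194. Both calls were also lost with no filter on low values. The scarcer transcript ENSMUST00000097699 had 1.30 to 2.35 FPKM in the high-fat pools, against 1.16 and 0.940 FPKM in NCD, and did not pass (limma adjusted p = 0.28 for the mean).

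F630028O10Rik has a RefSeq model at chrX:96239926-96243642, 3559 bases from Vsig4, a complement receptor of liver macrophages that is 1 of the 7 macrophage markers used here. Its transcript ENSMUST00000147681 had 1.89 and 2.07 FPKM in H1D, 3.21 and 3.94 in H2D, 3.11 and 4.01 in H3D, 1.29 and 1.34 in NCD, and 0.704 and 1.09 in Nor. Every high-fat pool lay above both NCD pools, which lay above both Nor pools. The log2 change was 0.92 ± 0.17 for the mean (limma adjusted p = 0.0418) and 1.15 ± 0.21 in H3D (limma adjusted p = 0.0235). The scarcer transcript ENSMUST00000133125, with 1.46 and 1.58 FPKM in H3D, against 0.262 and 0.119 FPKM in NCD, also rose in H3D (log2 change 1.56 ± 0.29, limma adjusted p = 0.0235). It met the level in 5 libraries, all of them high-fat, so its difference from NCD follows in part from how it was chosen.

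All 7 macrophage markers were detected, none was at 0 in all libraries, and 2 of the 7 rose in the mean of the high-fat groups. Their summed level, given above, was likewise higher in every high-fat pool than in NCD and in both NCD pools than in Nor. That order was not particular to them, since the summed cell division markers had it too. All 5 neutrophil markers tested also rose in the mean of the high-fat groups. The part of any of these shifts in the rise of F630028O10Rik was not tested. Without any one library other than a Nor replicate the call of ENSMUST00000147681 for the mean was lost (limma adjusted p up to 0.252), and without any one of the H3D or NCD replicates both calls in H3D were lost (up to 0.115 and 0.133).

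Gm17104 had 5.81 and 8.18 FPKM in H1D, 5.34 and 7.79 in H2D, 7.85 and 5.56 in H3D, 2.97 and 1.97 in NCD, and 4.26 and 5.10 in Nor. The high-fat pools lay above all chow pools, and both NCD pools lay below both Nor pools. The log2 change was 1.29 ± 0.23 for the mean (limma adjusted p = 0.0362) and 1.28 ± 0.29 in H3D (limma adjusted p = 0.0405). Both calls were kept only in the fits without a Nor replicate, and the adjusted p reached 0.269 and 0.218 in the others. Gm15962, named after its values were seen, with 0.116 to 0.496 FPKM in the high-fat pools, against 0.770 and 1.22 FPKM in NCD (limma adjusted p = 0.0419), also fell for the mean. It met the level through NCD and Nor libraries alone, so its difference follows in part from how it was chosen. Its call was kept only without H1D replicate 2 or a Nor replicate, with an adjusted p up to 0.295 otherwise.

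Leaving aside Gm10680, which was singled out for its level, 2 of the 10 most abundant antisense RNAs passed in H3D against NCD, namely Sardhos and Gm28959. Sardhos is named after Sardh, the mitochondrial sarcosine dehydrogenase of one-carbon metabolism. Sardhos had 78.8 and 130 FPKM in H1D, 115 and 122 in H2D, 57.3 and 51.4 in H3D, 143 and 128 in NCD, and 258 and 239 in Nor. Sardh had 109 and 131 FPKM in H1D, 124 and 121 in H2D, 63.0 and 68.0 in H3D, 160 and 167 in NCD, and 257 and 252 in Nor. Both had their lowest level in H3D and their highest in Nor, with no overlap of either group with NCD.

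Sardhos fell in H3D against NCD by 1.31 ± 0.23 on the log2 scale (limma adjusted p = 0.0219), a call that was lost without any one of the H3D or NCD replicates (adjusted p up to 0.105). For the mean of the high-fat groups the log2 change of Sardhos was -0.64 ± 0.19 (limma adjusted p = 0.12) and that of Sardh -0.73 ± 0.09 (limma adjusted p = 0.0032). In NCD against Nor the log2 change of Sardhos was -0.87 ± 0.23 (limma adjusted p = 0.13) and that of Sardh -0.64 ± 0.10 (limma adjusted p = 0.01). Both calls of Sardh were lost without NCD replicate 2, and that in NCD also without NCD replicate 1 (limma adjusted p up to 0.0658 and 0.0879). The mean level of the Sardhos transcript was 91.2% of that of Sardh, which was summed over its transcripts. Over the 105 pairs, taken in the same way, the median was 9.72%. The change of the ratio of Sardhos to Sardh passed neither in NCD against Nor nor in the high-fat groups. Whether the models share reads was not tested.

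Gm28959 had 64.3 and 80.1 FPKM in H1D, 84.8 and 78.9 in H2D, 60.6 and 56.9 in H3D, 95.5 and 96.8 in NCD, and 146 and 139 in Nor. It fell in H3D by 0.71 ± 0.16 on the log2 scale (limma adjusted p = 0.0405), and the call was lost without any one of the H2D, H3D or NCD replicates (adjusted p up to 0.201). The other abundant transcripts passed in no comparison. Gm12744, the 2nd most abundant, had 170 to 273 FPKM in the high-fat pools, 200 and 235 in NCD and 147 and 178 in Nor, so NCD overlapped the high-fat groups and lay above Nor. Gm16567 held 111 to 122 FPKM in the high-fat pools, 113 and 113 in NCD and 132 and 122 in Nor. Gm15648 held 21.4 to 23.6 FPKM in the high-fat pools, 20.7 and 21.8 in NCD and 24.2 and 26.5 in Nor, and Gm42846 held 17.8 to 22.4 FPKM, 18.4 and 18.4, and 21.7 and 22.8 in the same groups. For each of these 3 the high-fat pools overlapped NCD. Gm37335 (32.4 to 51.7 FPKM in all libraries), Gm20463 (27.1 to 56.6 FPKM) and RP23-49L8.5 (28.4 to 49.0 FPKM) likewise passed in no comparison.

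Over the 153 transcripts with a mean of at least 1 FPKM, the highest and lowest group means differed by a median of 0.72 on the log2(FPKM + 0.5) scale. The difference was under 0.5 for 55 of them, at least 1 for 57 and at least 2 for 17. Of all 306, 132 (43.1%) had their highest group mean in Nor and 102 (33.3%) their lowest in H3D, against 40.0% and 30.4% of all noncoding transcripts tested. Of the antisense RNAs 17.6% had their lowest mean in Nor, against 24.5% of all, and 15.0% had their highest in NCD, against 12.4% of all. These differences were not tested.

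Levels in H3D included further calls that the naming rule did not single out, and these were named after their values were seen. The falls were RP23-60P18.10, ENSMUST00000203171, 4930534D22Rik, 1 of the 4 transcripts of 1600020E01Rik, 1 of the 3 of Gm11789, Gm15962 and 2 transcripts of 0610031O16Rik, and the other rise was Gm29571. RP23-60P18.10, 4930534D22Rik and Gm15962 met the level through groups other than H3D, so their falls follow in part from how they were chosen. ENSMUST00000203171, which overlaps the complement-like protease gene C1rl by 1290 bases, had 1.14 and 1.42 FPKM in H3D, against 4.30 and 3.81 FPKM in NCD, while C1rl had 31.6 and 40.6 FPKM in H3D and 39.7 and 41.0 in NCD. The transcript ENSMUST00000185046 of 0610031O16Rik, which overlaps the alcohol dehydrogenase gene Adh7, had 3.62 and 4.04 FPKM in H3D, against 9.89 and 11.3 FPKM in NCD. Adh7 had 2.25 and 2.37 FPKM in H3D, against 3.62 and 3.88 FPKM in NCD, so this antisense RNA was above its sense gene. RP23-60P18.10 had 0.220 and 0.330 FPKM in H3D, against 1.52 and 1.47 FPKM in NCD and 3.47 and 3.90 FPKM in Nor. None of these calls held in all 10 fits that left out a library: each was lost without any one of the H3D or NCD replicates, and those of Gm29571, Gm11789 and the scarcer 0610031O16Rik transcript also without other libraries (adjusted p up to 0.18).

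The sense genes themselves were then examined. Of 92 sense genes, 79 passed the filter of 1 FPKM in 2 libraries for the mRNA test. In NCD against Nor, 14 of the 79 passed in limma (17.7%), against 1609 of 11557 mRNA genes (13.9%). The 7 that rose (7.93% of all mRNA genes) were Cyp2a4, Tnfsf13, Ttc39a, Plet1, Rap1gap, Sorbs2 and Prss23, and the 7 that fell (6% of all) were Slc1a2, Mgll, Fitm2, Aldh1l1, Cobll1, Sardh and Mylk. Scaling to equal mRNA sums moved the median log2 change of all mRNA genes to 0.16, against -0.04 as deposited, and gave a split of 8 and 3. Leaving out 1 library gave 7 calls for either H2D replicate, 4 for NCD replicate 1, 5 for NCD replicate 2, 6 for Nor replicate 1 and 23 for Nor replicate 2. Of the 14 calls, those of Cyp2a4, Tnfsf13, Ttc39a and Fitm2 held with each of the 10 libraries left out in turn.

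In the high-fat groups against NCD, 7 of the 79 passed in limma (8.86%), against 1359 of 11557 (11.8%). Ttc39a rose (4.23% of all mRNA genes did), and Elovl6, Gsta3 (a glutathione transferase), Slc1a2 (a glutamate transporter), Dmgdh (dimethylglycine dehydrogenase, next to Sardh in choline breakdown), Sardh and Fitm2 (a lipid droplet protein) fell (7.53% of all did). The split was 4 and 5 with equal mRNA sums and 2 and 5 with quantile scaling, and with equal sums the median of all mRNA genes moved to 0.14. Leaving out NCD replicate 1 gave 3 calls, NCD replicate 2 gave 1 and either Nor replicate 11. Of the 7 calls, that of Ttc39a alone held with each library left out. Ttc39a, a tetratricopeptide repeat gene, had 2.63 and 2.28 FPKM in H1D, 2.59 and 2.67 in H2D, 4.22 and 4.91 in H3D, 1.20 and 1.41 in NCD, and 0.0856 and 0.0697 in Nor. Every high-fat pool lay above NCD and NCD lay above Nor, with log2 changes of 1.00 ± 0.11 (limma adjusted p = 0.0027) and 1.64 ± 0.14 (limma adjusted p = 0.00057). Ttc39aos1, which lies within Ttc39a on the other strand, had 0.477 to 1.11 FPKM in the high-fat pools, 0.234 and 0.620 in NCD, and 0.0669 and 0 in Nor, and it passed in neither comparison (limma adjusted p = 0.25 and 0.18).

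Of the antisense partners of the 7 sense genes called in the high-fat groups, Gm35986 alone was called in the same comparison. AW495222, within Dmgdh, had 0.153 to 0.799 FPKM in the high-fat pools, against 1.34 and 1.26 FPKM in NCD, and did not pass (log2 change -0.93 ± 0.28, limma adjusted p = 0.12).

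Where the sense gene passed the mRNA filter, the antisense RNA was the less abundant of the pair in 101 of 105 pairs. That filter keeps abundant sense genes, so the count is no measure of antisense RNAs in general. The antisense level is also that of a transcript, while the sense level is summed over all transcripts of the gene. Over the 13 sense genes that did not pass it, the antisense RNA was the more abundant in 17 of 19 pairs, for example Brip1os (6.49 FPKM, against 0.648 for Brip1), Gm15343 (6.03 FPKM, against 0.154 for Spatc1l) and Chrna1os (3.22 FPKM, against 0.00898 for Chrna1). These 3 were named after their values were seen. Here the sense genes were kept for being scarce and the antisense RNAs for reaching 0.5 FPKM. The count of 17 of 19 therefore also follows largely from how the pairs were chosen. The 4 exceptions among the 105 were Gm16573 ENSMUST00000161382 over Parp4, Gm16740 over Mllt11 and 2 transcripts of 0610031O16Rik over Adh7. In NCD against Nor the ratio of antisense to sense passed in 2 of the 105 in limma, against 2 of all 189 pairs (1.06%), and both ratios fell.

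The first was RP23-267I20.3 over Cyp2a4, whose promoter is printed above. Cyp2a4 had 1601 and 1539 FPKM in H1D, 637 and 562 in H2D, 1059 and 610 in H3D, 1007 and 958 in NCD, and 0.0485 and 0.862 in Nor. RP23-267I20.3 had 1.58 and 1.19 FPKM in H1D, 0.995 and 0.386 in H2D, 1.15 and 1.50 in H3D, 1.88 and 1.10 in NCD, and 1.03 and 1.03 in Nor. Cyp2a4 was near 0 in Nor and abundant in every DEN pool, while the antisense RNA overlapped between the DEN groups and Nor. Cyp2a4 rose by 10.15 ± 0.39 (limma adjusted p = 1.6e-05) and the ratio changed by -9.80 ± 0.51 (limma adjusted p = 1.1e-05) on the log2 scale. Cyp2a4 has a near-identical paralogue in Cyp2a5, and how reads were split between them is not given in the sources used here.

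The second was Tnfsf13os over Tnfsf13, a cytokine that sustains B cells. Tnfsf13 had 10.7 to 20.1 FPKM in the high-fat pools, 9.43 and 10.3 in NCD, and 0.630 and 0.682 in Nor. Tnfsf13os had 0.816 to 1.93 FPKM in the high-fat pools, 0.734 and 0.717 in NCD, and 0.0645 and 0.258 in Nor. Both were higher in every DEN pool than in Nor, Tnfsf13 by 3.16 ± 0.25 in NCD (limma adjusted p = 0.00041) and Tnfsf13os by 0.91 ± 0.31 (limma adjusted p = 0.18, not called) on the log2(FPKM + 0.5) scale. The ratio changed by -2.26 ± 0.22 (limma adjusted p = 0.0008). Both ratio calls held with each of the 10 libraries left out in turn. Because 0.5 is added before the log, the rise of a transcript this scarce is understated, so the fall of the ratio is overstated.

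**Figure D4:**
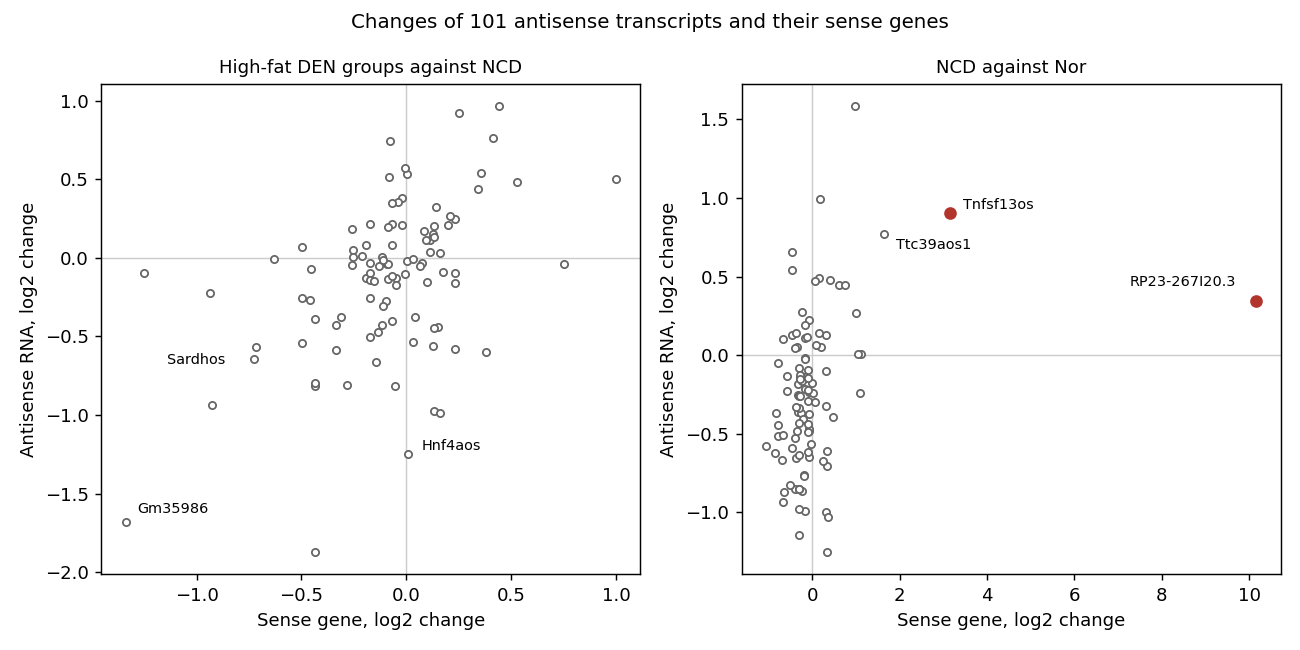
Log2 change of 101 of the 105 antisense transcripts (y axis) against that of their sense genes (x axis), both on the log2(FPKM + 0.5) scale, for the mean of H1D, H2D and H3D against NCD (left) and NCD against Nor (right), with axes that differ between panels. Each point is 1 pair and filled points are the pairs whose ratio passed the test; Hnf4aos lies near 0 on the sense axis in the left panel, and in the right panel Cyp2a4, the partner of RP23-267I20.3, lies at 10.15.

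Of 10 regulatory antisense RNAs listed for the description, 5 met the level, among them Hnf4aos, described above, Kcnq1ot1, Airn and Zeb2os. Kcnq1ot1 had 0.863 and 0.791 FPKM in H1D, 1.27 and 1.01 in H2D, 1.63 and 1.19 in H3D, 0.613 and 0.630 in NCD, and 0.965 and 0.695 in Nor. Its level in the high-fat pools lay above both NCD pools but overlapped Nor, and its log2 change against NCD was 0.52 ± 0.17 (limma adjusted p = 0.14). Airn had 1.05 and 0.960 FPKM in H1D, 1.16 and 1.22 in H2D, 1.38 and 0.681 in H3D, 0.477 and 0.390 in NCD, and 0.0841 and 0.254 in Nor. The high-fat pools lay above NCD and NCD above Nor, but no comparison passed, and the change of the high-fat groups against NCD was 0.74 ± 0.21 (limma adjusted p = 0.11). Airn overlaps its sense gene Igf2r by 28396 bases. Igf2r had 9.14 to 15.9 FPKM in the high-fat pools, 12.4 and 13.3 in NCD and 11.9 and 10.9 in Nor. Its high-fat pools overlapped both other groups. Both NCD pools lay above both Nor pools, with a log2 change of 0.16 that was not called.

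Zeb2os, named after the transcription factor Zeb2, had 0.663 to 1.07 FPKM in the high-fat pools, 0.682 and 0.656 in NCD and 0.186 and 0.527 in Nor. The antisense RNAs next in abundance whose symbols name their sense gene were Brip1os, Toporsos, Prox1os, Chrna1os, Adap2os, Sp3os, Sorbs2os, Rapgef4os2, Rab10os and Ctcflos, and 0 of these 10 passed in limma in NCD against Nor or in the high-fat mean, with 4 and 1 at an unadjusted p under 0.05 (18.6% and 18.5% of all noncoding transcripts). Brip1os, the most abundant of them, had 5.93 to 7.21 FPKM in the high-fat pools, 6.13 and 6.37 in NCD and 5.98 and 5.64 in Nor, while Brip1, a DNA helicase, had 0.504 to 0.872 FPKM in the high-fat pools, 0.667 and 0.648 in NCD and 0.511 and 0.467 in Nor. Sorbs2os had 1.49 to 3.59 FPKM in the high-fat pools, 1.20 and 0.721 in NCD and 0.324 and 0.858 in Nor. Its partner Sorbs2, an adaptor of the actin cytoskeleton, rose in NCD by 0.75 ± 0.19 on the log2 scale (limma adjusted p = 0.039, up to 0.194 without an H2D or NCD replicate or Nor replicate 1), with 62.8 and 58.4 FPKM in NCD, against 30.0 and 42.8 FPKM in Nor. Prox1os, partner of the hepatocyte and lymphatic transcription factor Prox1, had 2.51 to 5.44 FPKM in the high-fat pools, 3.21 and 3.86 in NCD and 6.19 and 4.80 in Nor, so NCD lay below Nor with a log2 change of -0.57 ± 0.21 that did not pass (limma adjusted p = 0.21).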

How the data were processed

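Liver RNA depleted of ribosomal RNA was sequenced as paired reads of 125 nt, per the labels' protocols. The authors deposited FPKM values per transcript. The build was GRCm38, and TopHat2 2.0.9 with Bowtie2 2.0.6 and Cuffdiff with Cufflinks 2.1.1 are among the tools, without stated roles, per the submitters' processing notes. Strandedness and depth are not given in the sources used here.

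The tables of annotated and unannotated long noncoding RNA and of transcripts of uncertain coding potential were stacked, and 1493 of 2030 transcripts with at least 0.5 FPKM in 2 of the 10 libraries were tested. The 50660 mRNA transcripts were summed to 21949 genes, and those with at least 1 FPKM in 2 libraries (11557) were tested. Deposited FPKM were analysed as log2(FPKM + 0.5), which understates the change of scarce transcripts, using limma 3.58.1 (R 4.3.3) and a coefficient for each of the 5 groups, a variance trend, 5 residual degrees of freedom, two-sided tests and Benjamini-Hochberg adjustment within a comparison. A call is an adjusted p below 0.05, and "rose" and "fell" are kept for calls. The ratio of antisense to sense was fitted in the same way over 189 pairs. The fit of noncoding transcripts was tested on simulated data with independent transcripts, for the mean of the high-fat groups against NCD alone. That simulation did not cover the other comparisons, the mRNA genes or the ratio. Sense genes came from opposite-strand overlap in RefSeq GRCm38.p6 or from the symbol. Gene symbols were as deposited, and plots used Python 3.11.15, pandas 2.3.3 and matplotlib 3.10.9.

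The transcripts, marker lists and comparisons were chosen with earlier results of these data known. Named transcripts were Gm10680 and Gm15622, the 10 with the highest mean, the 4 largest called rises and falls per comparison among those whose pools did not overlap and whose mean reached 1 FPKM in one of the groups, 10 listed regulatory antisense RNAs where they met the level, and 10 whose symbols name their sense gene. Others are said to be named after their values were seen. Results for 1 antisense locus are not reported here. Alternatives were pseudocounts of 0.1 and 1 FPKM, no filter and a stricter one (mean of 1 FPKM, or 5 for mRNA), equal mRNA sums, quantile scaling (except for the ratio), transcripts summed to genes, only the groups compared, the replicate number as a block, and each library left out. The labels do not say that pools were separate extractions or that equal numbers mark a shared origin.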

Additional observations from a re-analysis of the deposited data

How the results depend on the processing

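The 19 calls of named antisense transcripts kept their direction in all 339 values computed under the alternatives, and the call itself was kept in 219 and lost in 120. With each of the 10 libraries left out in turn, the number of called antisense transcripts ran from 1 to 8 in NCD against Nor, from 1 to 24 in H3D against NCD and from 0 to 6 in the high-fat mean against NCD. The number of called sense genes ran from 4 to 23 in NCD against Nor and from 1 to 11 in the high-fat mean, and that of called ratios from 2 to 3 and from 0 to 2. It stayed at 0 in the other comparisons of antisense transcripts. With only the groups compared in the fit, 1 antisense transcript was called in NCD against Nor and 0 in H3D against NCD, and 11 sense genes in the high-fat mean; fewer libraries then set the spread. A pseudocount of 0.1 FPKM gave 2 antisense transcripts in the high-fat mean, and 1 FPKM gave 2 ratios there. The stricter filter gave 1 in H1D against NCD and 1 ratio in NCD against Nor, and sums over genes gave 1 in H2D against NCD. No filter gave 7 sense genes and quantile scaling 6 in NCD against Nor; the cause was not tested. With the replicate number as a block, 13 antisense transcripts were called in H3D against NCD, 3 in the high-fat mean and 4 in NCD against Nor. Deviations of same-numbered pools correlated between groups by -0.07 to 0.10. Noise in scarce transcripts also lowers such a correlation, so it does not decide whether the numbers pair the pools. With 2 pools per group and an unknown depth, the precision of values near 0.5 FPKM is limited.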
